A study of Homo sapiens with 12 samples.

Results

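*CTTNBP2*, *FAM20C*, *SPSB4*, *MYO3A* and *PRIMA1* are 5 protein-coding genes of the 60612 gene rows in an RNA-seq count table of ZR-75-1 cells, an oestrogen receptor (ER)-positive human breast cancer line. They were chosen from the counts themselves, because their reads dropped to near zero in control-guide cells given the drug, stayed in *RB1*-knockout cells given the drug, and they are not classic cell-cycle genes. The 4 groups had 3 biological replicates each. sgControl clones had been edited with CRISPR and a guide that targets no gene, and *RB1*-knockout clones with a guide against *RB1*. Both genotypes were grown for 5 days with the solvent DMSO or with 500 nM abemaciclib, an inhibitor of the cyclin-dependent kinases CDK4 and CDK6. How many clones stand behind each genotype is not given in the sources used here, so a difference between genotypes and a difference between clones cannot be told apart. The sample labels name a directional library kit for total RNA, whereas the study's methods describe a 3′ kit.

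*RB1* encodes Rb, the retinoblastoma protein, which holds E2F transcription factors in check. CDK4 and CDK6 phosphorylate Rb and release E2F, so that genes for DNA replication and division are transcribed. An inhibitor of these kinases leaves Rb in its active form, and cells that have lost Rb no longer arrest. The 5 genes have no known common pathway. CTTNBP2 binds cortactin and associates with striatin complexes in the dendritic spines of neurons. FAM20C is the Golgi kinase that phosphorylates secreted proteins and is needed for mineralization of bone and teeth. SPSB4 is a substrate receptor of a cullin 5 ubiquitin ligase. MYO3A is a myosin with a kinase domain that moves to the tips of actin protrusions in hair cells and photoreceptors. PRIMA1 anchors acetylcholinesterase in the membrane of neurons.

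The bases just upstream of each start annotated in RefSeq are shown first, because promoter sequence played no part in the choice. Sequences are from the RefSeq promoter table for GRCh38.p14, in which all 5 members matched. Each line gives the 30 bases before the start, 5′ to 3′ on the strand of the gene, with CpG dinucleotides in capitals. *CTTNBP2* has 2 windows in the table, and the CpG-rich one is shown; its start lies inside the span that GENCODE gives for the gene.
CTTNBP2, chr7:117873442-117873471, minus strand: ggctgagtcCGgagcCGCGgctcCGagctc
FAM20C, chr7:192541-192570, plus strand: gatatctgccCGccCGggaCGCGgggCGcc
SPSB4, chr3:141051317-141051346, plus strand: gattagtggccttcagggatgagctcagcc
MYO3A, chr10:25934199-25934228, plus strand: gaccttCGgccCGccctctacaggCGgccc
PRIMA1, chr14:93788486-93788515, minus strand: gctttaaatgggggctgtcCGgctgctggg
These short stretches held 4, 5, 0, 3 and 1 CpG, against a median of 1 over all 35116 promoters. In the full windows of 300 bases (250 before the start and 50 after), the GC content was 77.7% for *CTTNBP2*, 78.7% for *FAM20C*, 74% for *SPSB4*, 72.7% for *MYO3A* and 74.3% for *PRIMA1*, and the median over all promoters was 58.7%. The same windows held 53, 45, 37, 31 and 35 CpG, against a median of 14, and 0.604%, 3.48%, 11.3%, 20.7% and 14.1% of promoters held as many. The second *CTTNBP2* window was unlike these, with a GC content of 62.3% and 13 CpG, and 51.7% of promoters held as many. All promoters of the table served as the background, without a match for expression in these cells.

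An E2F motif was searched on both strands as TTTCCCGC, TTTCGCGC, TTTGCCGC or TTTGGCGC. It occurred in 0 windows of the members, in 3.31% of all promoters and in 42.6% of 47 windows of S phase genes. Of 58 windows of G2/M genes 6.9% held it. At a share of 3.31%, so few member windows would most often lack it. The cell-cycle homology region (CHR, TTTGAA), a motif of promoters active in G2 and mitosis, was in 0 windows of the members and in 15.2% of promoters. An oestrogen response element, searched as the full palindrome, was in 0 windows of the members and in 0.00285% of promoters. At so low a share its absence from the members was close to certain and carries no information. The CCAAT box, which is bound by the factor NF-Y, was in the windows of *FAM20C* and *SPSB4* and in 34.6% of promoters. It is in capitals below, in windows of 30 bases on the plus strand; in *SPSB4* it lies on the minus strand and so reads ATTGG.
FAM20C, chr7:192487-192516, bases -73 to -69 from the start: cggcggctccgCCAATctgtgggcgctgac
SPSB4, chr3:141051302-141051331, bases -34 to -30 from the start: cttccgcggctATTGGattagtggccttca
These matches describe letters in short windows and no binding was measured.

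The genes lie on chromosomes 7, 3, 10 and 14, none on chromosome 13, which carries *RB1*. In the GENCODE v44 annotation of GRCh38, *CTTNBP2* spans positions 117710651 to 117874139 on chromosome 7 and *FAM20C* spans 192571 to 260772 on the same chromosome. *SPSB4* spans 141051347 to 141148611 on chromosome 3. *MYO3A* spans 25934229 to 26212532 on chromosome 10, and *PRIMA1* spans 93718298 to 93788485 on chromosome 14. Overlaps were searched among the 37802 count rows whose symbol was unique and matched an annotated gene. In that set only *CFTR* overlaps a member, sharing 5321 bases with *CTTNBP2* on the opposite strand. It had 2 to 9 reads in every library.

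Libraries held 39907318 to 81636393 counted reads. *RB1* itself followed the labels, since the sgControl DMSO libraries averaged 4576.7 ± 368.1 normalized counts (SD, n = 3) and the knockout DMSO libraries 46.8 ± 6.3. Normalized counts here are reads divided by the median-of-ratios size factor of the library. All 10 luminal breast markers examined, among them *ESR1*, *GATA3* and *KRT8*, had means of 2822.0 or more in every group, while 0 of 3 basal and 0 of 4 leukocyte markers reached a mean of 10. The luminal levels still differed between groups by DESeq2. With drug, 7 were higher and 3 lower in sgControl, beside 24.8% and 24.6% of all tested genes. In DMSO, 1 was higher and 6 were lower in the knockout, beside 16.2% and 15.2%. Of 5 stromal markers, *COL1A1* (means of 1940.1 to 2903.0), *ACTA2* and *PDGFRB* reached it in both DMSO groups, whereas *VIM* and *COL1A2* were at 2.2 or less in every group. *ACTA2*, smooth muscle actin, had means of 585.2 and 138.5 in sgControl and 858.1 and 838.9 in the knockout, a log2 response of -2.08 ± 0.13 in sgControl (adjusted p = 1.76e-52) and of -0.03 ± 0.12 in the knockout (adjusted p = 0.881). Of 19 neuronal and neuroendocrine markers, 5 had a mean of at least 10 in each DMSO group and 6 in each abemaciclib group. The neuronal markers summed to 3041 to 3420 per library in sgControl DMSO, 3657 to 3737 in sgControl abemaciclib, 4003 to 4090 in knockout DMSO and 4410 to 4620 in knockout abemaciclib. Most of each sum was *SYT1*, with means of 1991.2, 2833.5, 3003.7 and 3223.0 in that order. *SYP* was highest in sgControl DMSO, with 973.6, 489.9, 623.0 and 508.3. Reads from mitochondrial genes were 2.82 to 3.99% of a library in sgControl DMSO, 7.22 to 8.53% in sgControl abemaciclib, 3.78 to 4.13% in knockout DMSO and 5.44 to 7.39% in knockout abemaciclib. The part of these differences in the results below was not tested.

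*CTTNBP2*, the cortactin-binding gene, was the least abundant member in control cells. Its normalized count in sgControl DMSO was 73.5, 82.8 and 92.0 in replicates 1 to 3. Not a read was counted in any of the 3 sgControl abemaciclib libraries. The knockout libraries held 598.4, 684.2 and 557.0 in DMSO and 428.1, 378.0 and 402.5 in abemaciclib. All 6 knockout libraries were thus above all 6 control libraries, and the 2 knockout groups did not overlap. The choice itself had set the drug-treated control apart. In DMSO, 21.3% of all tested genes had every knockout library above every sgControl library. No such share was computed for the 2 knockout groups, between which DESeq2 called 30.1% of 18506 tested genes. Against a floor of 3 reads per library, a normalized count of 2.84, the sgControl level was at least 29.1-fold lower in abemaciclib, and the knockout level in abemaciclib at least 142-fold higher than the sgControl level. In a bulk sample such a drop cannot tell fewer expressing cells from less RNA per cell.

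*FAM20C* encodes the secretory kinase. Control cells in DMSO held a normalized count of 237.4, 214.2 and 192.1. In sgControl abemaciclib the raw reads were 0, 0 and 2. Knockout cells held 1177.7, 1183.3 and 1243.7 in DMSO and 1432.6, 1450.9 and 1369.8 in abemaciclib. The order of the groups was therefore the same as for *CTTNBP2* except that the drug-treated knockout was highest. Against the floor, the sgControl level was at least 75.4-fold lower with drug, and the drug-treated knockout level was at least 498-fold above the drug-treated control.

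*SPSB4*, the ubiquitin-ligase receptor, had counts of 184.3, 154.2 and 157.5 in sgControl DMSO. The drug-treated control libraries had 1, 2 and 1 raw reads. In the knockout, the 3 DMSO libraries were spread more widely, at 292.4, 355.9 and 419.5, and the abemaciclib libraries held 536.8, 609.6 and 625.4. No group overlapped another, although the choice itself had set the drug-treated control apart. The share of all genes whose knockout groups were separate was not computed. The sgControl level was at least 58.1-fold lower in abemaciclib than in DMSO, and the drug-treated knockout was at least 208-fold above the drug-treated control.

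*MYO3A*, the myosin, was at 275.5, 320.8 and 294.2 in sgControl DMSO. Its raw reads in sgControl abemaciclib were 5, 0 and 1, so that replicate 1 supplied 5 of the 6. The knockout held 429.0, 437.4 and 424.0 in DMSO and 689.7, 663.3 and 736.3 in abemaciclib. The groups did not overlap, with the same limits as for *SPSB4*: the choice had set the drug-treated control apart, and the share was not computed. The mean in sgControl was 142-fold lower with drug, a log2 fold change of -7.30 ± 0.60 (SE), and without replicate 1 of the drug-treated control the fitted value was -9.39. The knockout exceeded the control in abemaciclib by 8.53 ± 0.60 on the log2 scale.

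*PRIMA1*, the acetylcholinesterase anchor, was the most abundant member in control cells and the least variable, at 977.4, 973.9 and 958.2 in sgControl DMSO. The drug-treated control had 3, 8 and 4 raw reads. Knockout libraries held 1256.9, 1120.5 and 1153.9 in DMSO and 1150.6, 1138.2 and 1063.1 in abemaciclib. Unlike in the other members, the 2 knockout groups overlapped. The control mean was 210-fold lower with drug, with a log2 fold change of -7.69 ± 0.38, and the knockout was above the control in abemaciclib by 7.89 ± 0.38.

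**Figure D1:**
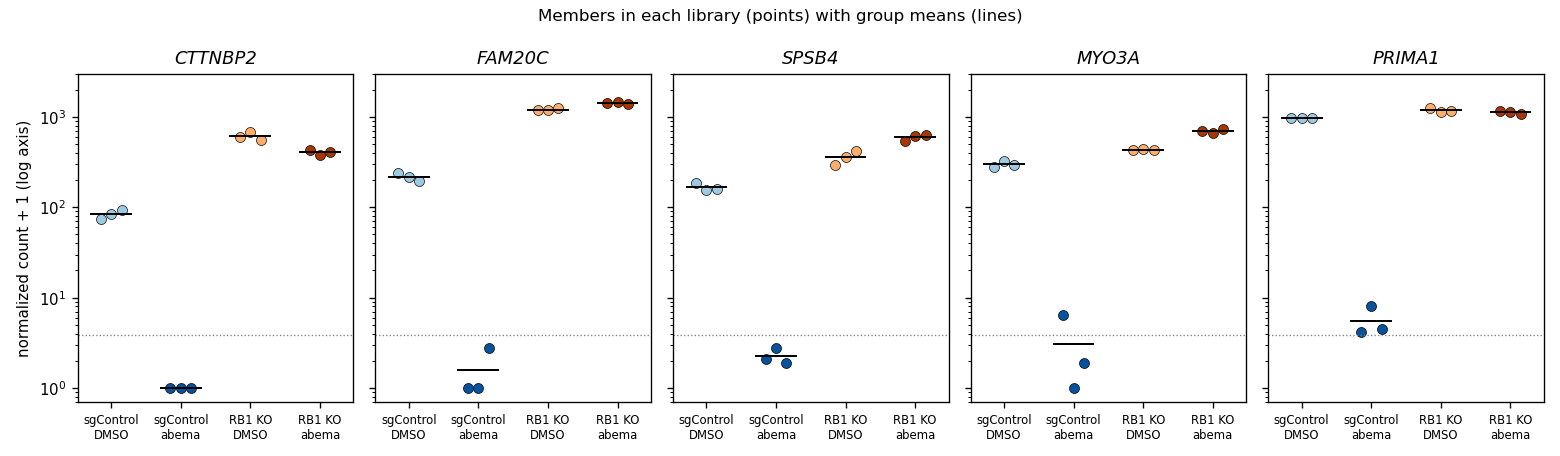
Normalized count plus 1 of each member (log axis) in the 12 libraries, 3 per group (KO, knockout; abema, abemaciclib); points are libraries, black lines are group means and the dotted line is the floor of 3 reads per library plus 1. The drug-treated sgControl libraries, with 0 to 8 raw reads, sit far below the other 9 for every gene.

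Levels of different genes were compared only per kilobase of exon, a scale that would not apply if reads came from a 3′ kit. On it, sgControl DMSO cells held 249 normalized counts per kb for *PRIMA1*, 43.6 for *SPSB4*, 42.5 for *FAM20C*, 35.2 for *MYO3A* and 11.9 for *CTTNBP2*. In knockout abemaciclib cells the order was *PRIMA1* at 287, *FAM20C* at 281, *SPSB4* at 156, *MYO3A* at 82.5 and *CTTNBP2* at 57.8. The 3 genes in the middle of the control order were close together, whereas *FAM20C* stood beside *PRIMA1* in the knockout.

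With drug, the members differed in direction in the knockout, which is described without a test because those libraries also chose the genes. *SPSB4* and *MYO3A* were higher with abemaciclib, by 0.73 ± 0.14 and 0.70 ± 0.10 on the log2 scale. *FAM20C* was higher by a smaller amount, 0.24 ± 0.08. *PRIMA1* differed by -0.07 ± 0.08, within its error. *CTTNBP2* was lower, by -0.61 ± 0.12, so that it was the only member whose knockout libraries were all lower with drug. The interaction, the knockout response minus the sgControl response, was 8.00 ± 0.60 for *MYO3A* and 7.62 ± 0.39 for *PRIMA1*. Over all rows, 41.2% of 21008 tested genes had an interaction at an adjusted p under 0.05, 49.4% of 22885 a response in sgControl and 30.1% of 18506 a response in the knockout. Between genotypes in abemaciclib 53.9% of 22260 tested genes were called, 27.5% higher and 26.4% lower in the knockout.

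To set the size of the drop beside that of other genes, the mean level in abemaciclib was expressed as a percentage of the mean in DMSO. Among 12473 genes with a mean of at least 50 in both DMSO groups, the median level left was 97.4% in sgControl and 98.4% in the knockout. In sgControl *CTTNBP2* kept at most 3.44%, *SPSB4* at most 1.72% and *FAM20C* at most 1.33%, with the floor as the upper limit. *MYO3A* kept 0.704% and *PRIMA1* 0.476%. These values chose the members, so their place among all genes is a description. By the measured means 30 of the genes (0.241%) kept under 2% in sgControl, with *RRM2* and *PIM1* among them, while the upper limit for *CTTNBP2* lies above that mark. In the knockout 0 genes kept under 2%, and the lowest value was 7.85%. In the knockout the members kept 65.7% (*CTTNBP2*), 118% (*FAM20C*), 166% (*SPSB4*), 162% (*MYO3A*) and 94.9% (*PRIMA1*).

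Cell-cycle genes gave the comparison that the choice of members excluded. The 43 S phase genes kept a median of 25% in sgControl (0.34 to 119%) and 93% in the knockout. For 53 G2/M genes the medians were 18.1% and 96.2%. *RRM2*, the ribonucleotide reductase subunit that supplies deoxynucleotides, went from a mean of 10956.9 to 37.3 in sgControl, or 0.34%, and kept 63.5% in the knockout. *MKI67*, the proliferation marker Ki-67, kept 1.32%, *CCNE2*, which encodes cyclin E2, 1.43%, *AURKB*, a mitotic kinase, 1.46%, and *CDK1*, the mitotic cyclin-dependent kinase, 6.67%. These genes started from high levels and retained reads, and 0 of the genes in both lists had 10 or fewer in every drug-treated control library.

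**Figure D2:**
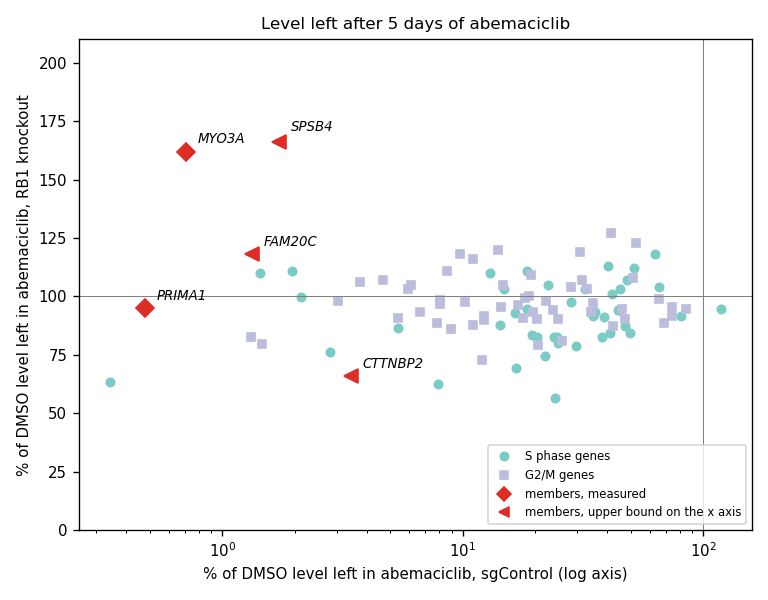
Level left in abemaciclib as a percentage of the DMSO level, in sgControl (horizontal, log axis) against the *RB1* knockout (vertical), for the 5 members and the S phase and G2/M genes; grey lines mark 100% and left-pointing triangles are upper bounds on the horizontal axis. Members lie at or under 3.44% in sgControl and between 65.7% and 166% in the knockout, while most cell-cycle genes lie near 100% in the knockout at higher shares in sgControl.

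The comparison of untreated genotypes did not enter the choice directly, although the sgControl DMSO level stands behind the word dropped. Without drug, all 5 members were higher in the knockout. In the DESeq2 fit over all genes, 16.2% of 19757 tested genes were called higher and 31.4% were called in either direction. *CTTNBP2* was 7.41-fold higher (log2 fold change 2.88 ± 0.14, adjusted p = 3.65e-88) and *FAM20C* 5.6-fold (2.50 ± 0.09, adjusted p = 1.52e-153). *SPSB4* was 2.15-fold higher (1.11 ± 0.15, adjusted p = 4.03e-12). *MYO3A* was 1.45-fold higher (0.54 ± 0.10, adjusted p = 3.65e-06) and *PRIMA1* 1.21-fold (0.28 ± 0.08, adjusted p = 0.00126). For each of them every knockout DMSO library lay above every sgControl DMSO library, as it did for 21.3% of all tested genes. The size of the difference thus ran from large for *CTTNBP2* and *FAM20C* to small for *PRIMA1*, and it cannot be told apart from a difference between the clones.

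**Figure D3:**
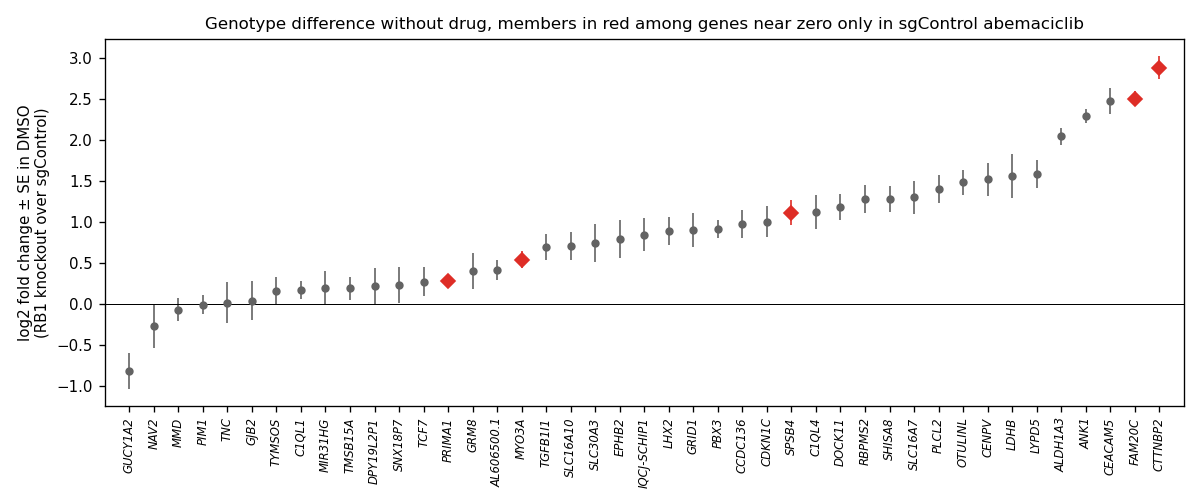
Log2 fold change of the *RB1* knockout over sgControl in DMSO, with its standard error, for the 5 members (red diamonds) and 38 other genes (grey) that share their count pattern. Members range from 0.28 for *PRIMA1* to 2.88 for *CTTNBP2*, and 34 of the 38 other genes lie above zero. The pattern requires a count of at least 50 in every DMSO library, which limits how far a gene can lie below zero.

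A numeric version of the choice was applied to all rows, as a description: at most 10 raw reads in each sgControl abemaciclib library and a normalized count of at least 50 in each of the other 9. It held for 43 genes, all 5 members among them and 0 genes of the S phase and G2/M lists. The limit on reads is absolute, so an abundant gene can fail it after a deep fall. *RRM2*, with 0.34% left, still had 35 to 44 reads. At a limit of 30 reads 1 gene of those lists met the pattern. The mirror pattern, with the drug-treated knockout as the only group near zero, held for 0 genes. The highest mean count of the 43 in sgControl DMSO, after *PRIMA1*, was that of *C1QL1*, a secreted C1q-like protein of synapses, with means of 590.8 in DMSO and 7.2 in abemaciclib, against 662.1 and 1402.3 in the knockout. Next came *PIM1*, a serine/threonine kinase, which went from 419.1 to 3.1 in sgControl and had 415.8 and 373.9 in the knockout. *TMSB15A*, a thymosin that binds actin monomers, went from 365.9 to 6.7 and had 417.0 and 856.0 in the knockout. *ANK1* (ankyrin 1, which links the spectrin skeleton to membranes), *PBX3* (a homeobox transcription factor), *MMD* and *AL606500.1* complete the 10 with the highest counts, together with *MYO3A* and *FAM20C*. At the edge of the limit stood *MMD*, with up to 10 reads in a drug-treated control library, and just outside it *DPYSL5*, with 9 to 17 reads and 0.771% of its DMSO level left.

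Genes of this pattern were also described in the DMSO comparison, with the caution that the pattern sets a minimum in both DMSO groups. Of the 38 that are not members, 24 were called higher in the knockout and 1 lower, beside 16.2% and 15.2% of all tested genes, and their median log2 fold change was 0.81. Among the 12153 tested genes that met the minimum of 50 in the 9 libraries, 20.7% were called higher and 22.1% lower, with a median of -0.01. Those genes were not matched to the 38 on level, and the minimum leaves less room for a lower value in genes near it. How much of the excess the pattern itself sets was not tested. *ANK1* was higher by 2.29 ± 0.09, close to *FAM20C*, and *PBX3* by 0.91 ± 0.11. *C1QL1* (0.17 ± 0.11), *PIM1* (-0.01 ± 0.12) and *MMD* (-0.07 ± 0.14) did not pass the test.

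The genes whose pattern was most like that of a member were found by Pearson's r of log2(normalized count + 1) over the 12 libraries, among 11885 genes with a mean of at least 100. The points share 4 groups, so that r mostly reflects group means. For *CTTNBP2* these were *GALNT14* (r = 0.998), *GBP2* (0.998) and *CBLN2* (0.997), none of which was near zero in any group. *CBLN2*, a cerebellin secreted at synapses, had means of 3573.9, 88.7, 12860.3 and 12751.3 in sgControl DMSO, sgControl abemaciclib, knockout DMSO and knockout abemaciclib. The nearest to *FAM20C* were *GAREM2* (0.996), *ANK1* (0.996) and *FAR2* (0.995), of which *GAREM2* had 62.7, 0.6, 355.7 and 391.4. *SPSB4* was most like *ARHGAP10* (0.998), *CDCA7L* (0.997) and *LHX2* (0.997), a LIM homeobox factor with 85.6, 4.7, 157.7 and 218.3. *MYO3A* was nearest to *CNKSR2* (0.995), *SLC16A10* (0.993) and *MNS1* (0.992), and *PRIMA1* to *NEURL1B*, *B4GALNT1* and *ZNF367* (0.998 each). Among the members themselves r ran from 0.961 to 0.992.

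Genes linked to each protein, called partners for short, were then examined, in lists that total 80 genes. Besides binding partners and substrates the lists hold relatives, cholinergic genes for *PRIMA1*, and other motors and linkers of actin protrusions for *MYO3A*. Of 66 tested in sgControl, 17 were higher and 25 lower with abemaciclib, and the same fit called 24.8% of all genes higher and 24.6% lower. The knockout had 9 higher and 12 lower of 63, beside 15% and 15.1% of all genes. The interaction passed for 38 of 63, with 23 positive and 15 negative, beside 21% and 20.2%. The median log2 fold change of the lists together was -0.04 in sgControl, where it was 0.02 over all genes, and -0.04 in the knockout.

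Cortactin itself, *CTTN*, was highly expressed in all groups, with means of 55568.8 to 68572.0, and its response in sgControl was 0.21 ± 0.09 (adjusted p = 0.0487). Of the 19 genes for cortactin and the striatin and phosphatase 2A complex, 2 were higher and 7 lower with drug in sgControl. The complex kinase *STK26* had a log2 response of -0.67 ± 0.09 (adjusted p = 1.01e-12) and so fell, as did *MOB4*, a striatin-bound adaptor, at -0.76 ± 0.10 (adjusted p = 2.41e-12). *STK25*, another kinase of the complex, rose by 0.43 ± 0.05 (adjusted p = 4.96e-15). *CTTNBP2NL*, the closest relative of *CTTNBP2*, had 761.1, 861.2, 930.3 and 875.6 in the order of groups used above, and its response in sgControl (0.18 ± 0.10, adjusted p = 0.13) did not pass.

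For *FAM20C*, the list held secretory-pathway kinases and substrates, and 6 rose and 3 fell of 13 tested in sgControl. The relative *FAM20A* had means of 0.0 in every group. *FAM20B*, the xylose kinase of proteoglycan synthesis, fell by 0.51 (SE 0.09, adjusted p = 1.83e-07) and *FJX1*, the human relative of a fly Golgi kinase, by 0.75 (SE 0.05, adjusted p = 2.29e-41). Other kinases of the list rose in sgControl: *PKDCC* by 1.57 ± 0.29 (adjusted p = 3.02e-07), *GASK1A* by 0.94 ± 0.28 (adjusted p = 0.00214) and *GASK1B* by 0.35 ± 0.08 (adjusted p = 7.68e-05). *POMK* did not pass (-0.08 ± 0.11, adjusted p = 0.58). The mineralization substrates *SPP1*, *FGF23*, *IBSP* and *DMP1* had means of 0.0 in every group. Among substrates of other kinds, *ERO1A*, an oxidase of the endoplasmic reticulum, fell from a mean of 1486.2 to 645.0 in sgControl and held 1602.0 and 1621.0 in the knockout. *SERPINA1*, which encodes the protease inhibitor alpha-1-antitrypsin, went the other way and rose from 1814.2 to 60912.7 in sgControl (5.07 ± 0.10) and from 543.8 to 1672.4 in the knockout (1.62 ± 0.11). *QSOX1*, a sulphydryl oxidase, rose in sgControl (0.70 ± 0.04) and fell in the knockout (-0.28 ± 0.04).

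The ligase partners of *SPSB4* showed small differences. The family member *SPSB1* rose with drug in sgControl by 0.52 ± 0.07 (adjusted p = 6.85e-12) and was higher in the knockout in DMSO by 0.80 ± 0.07, while *SPSB2* fell in both genotypes, by 0.26 and 0.39 on the log2 scale. *ELOB*, the elongin B subunit, rose in sgControl by 0.31 ± 0.11 (adjusted p = 0.0163), a call that was lost in several alternatives. The ligase-associated *ARIH2* fell by 0.54 (SE 0.06) and the SPSB target *PAWR*, a regulator of apoptosis, by 0.73 (SE 0.05) in sgControl, with log2 fold changes of -0.20 ± 0.06 and -0.22 ± 0.05 in the knockout, of which that of *ARIH2* was lost in 4 alternatives. *EPHB2*, an ephrin receptor and a reported SPSB4 target, is named after its values were seen: its means were 65.4, 5.9, 112.7 and 68.2, it is among the 43 genes above, and it fell by 3.46 in sgControl (SE 0.39, adjusted p = 1.46e-17).

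Around *MYO3A*, the cadherin *CDH23*, which forms the tip links of hair cells, came nearest to the pattern. Its means were 354.7 and 26.7 in sgControl and 606.3 and 1166.6 in the knockout. It fell by 3.69 in sgControl (SE 0.18, adjusted p = 1.76e-90) and rose by 0.94 ± 0.10 in the knockout (adjusted p = 3.10e-20). *EPS8*, an actin-capping protein of stereocilia, fell by 1.28 in sgControl (SE 0.09, adjusted p = 4.62e-49). The actin bundlers *ESPN* and *FSCN2* rose there by 0.82 ± 0.07 and 0.91 ± 0.14. The bundler *FSCN1* went the other way, with a fall of 0.57 in sgControl (SE 0.09, adjusted p = 2.64e-09) and a rise of 0.34 ± 0.08 in the knockout (adjusted p = 4.20e-04). The other class III myosin, *MYO3B*, had means of only 1.2 to 10.5. Of the 16 genes in this list, 13 were tested in sgControl, with 5 higher and 4 lower.

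The enzyme that PRIMA1 anchors did not share its pattern. *ACHE*, acetylcholinesterase, had means of 491.2 and 509.6 in sgControl, a difference of 0.05 ± 0.10 that did not pass (adjusted p = 0.685). In the knockout *ACHE* was lower than in sgControl in DMSO by 0.91 (SE 0.11, adjusted p = 3.33e-16) and fell with drug by 0.64 (SE 0.12, adjusted p = 1.31e-06). The related *BCHE* had means of 0.0 in every group. Of the 9 genes tested in this list, 1 was higher and 4 were lower with drug in sgControl. Among the nicotinic receptor subunits, *CHRNA5* fell in sgControl by 2.51 (SE 0.08, adjusted p = 2.81e-194) and *CHRNA7* by 1.27 (SE 0.15, adjusted p = 1.98e-16). Their knockout responses, -0.17 ± 0.07 (adjusted p = 0.0504) and 0.15 ± 0.13 (adjusted p = 0.422), did not pass. *CHRNA3* went with these, with a fall in sgControl from a mean of 29.3 to 5.1 (-2.47 ± 0.42, adjusted p = 1.87e-08). Its knockout response did not pass either (0.24 ± 0.22, adjusted p = 0.456). Other subunits differed: *CHRNB4* rose in sgControl by 0.83 ± 0.25 (adjusted p = 0.00268) and *CHRNB2* did not pass (0.08 ± 0.18, adjusted p = 0.772).

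**Figure D4:**
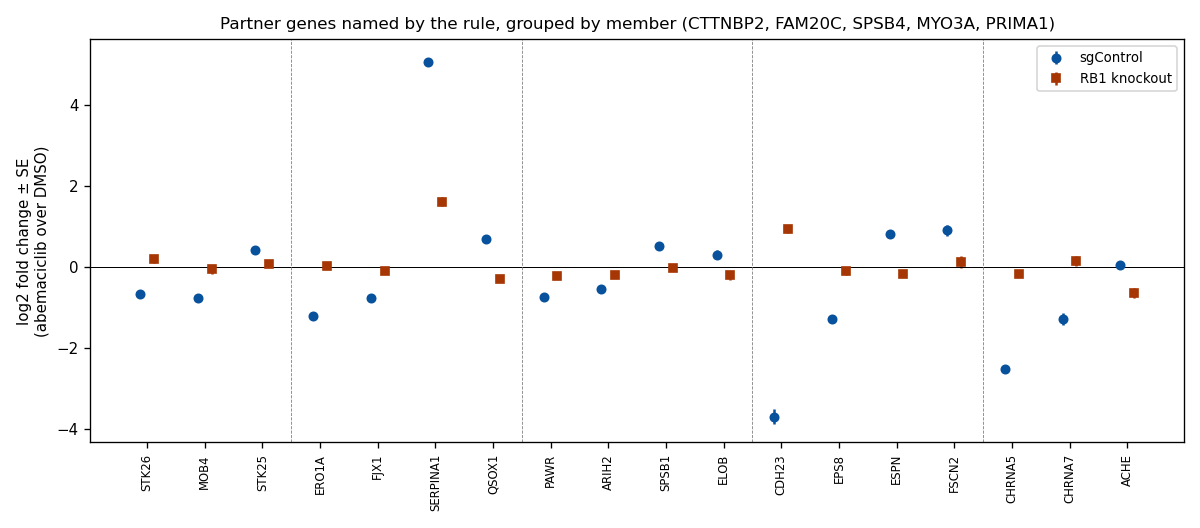
Log2 fold change of abemaciclib over DMSO, with its standard error, in sgControl (blue circles) and *RB1*-knockout cells (brown squares) for 18 partner genes, separated by dashed lines into the lists of *CTTNBP2*, *FAM20C*, *SPSB4*, *MYO3A* and *PRIMA1*. The largest fall is -3.69 for *CDH23* and the largest rise 5.07 for *SERPINA1*, both in sgControl.

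Neighbours were taken from the count rows matched to the annotation by symbol. The expressed genes nearest to each member on its chromosome, 3 on each side where there were as many, gave 27 neighbours. In sgControl 10 were higher and 12 lower with drug, beside 24.8% and 24.6% of all genes. The knockout had 7 higher and 3 lower, beside 15% and 15.1% of all genes. The interaction passed for 15, with 11 positive and 4 negative, beside 21% and 20.2%. Their median response in sgControl was 0.01. Among only the 9 nearest, 1 on each side where there is one, 1 was higher and 6 were lower in sgControl, and 5 had a positive and 1 a negative interaction that passed. *ACTG1P1*, a neighbour of *SPSB4*, is an actin pseudogene whose reads may belong to near-identical copies, and its value is uncertain.

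Among the nearest genes, *UNC79*, the exception that passed the test in the other direction, encodes a subunit of a sodium leak channel complex, lies 10422 bases from *PRIMA1* and rose in sgControl by 1.01 ± 0.37 (adjusted p = 0.0141), a call lost in 2 alternatives. *SLC25A36*, a mitochondrial carrier 70352 bases from *SPSB4*, fell by 0.58 (SE 0.10, adjusted p = 6.98e-09), and *PXYLP1* on its other side fell by 0.31 (SE 0.10, adjusted p = 0.00689), a call lost without replicate 1 of the drug-treated control. *PDGFA*, a growth factor gene 236486 bases from *FAM20C*, fell from 468.9 to 232.1, whereas *PRKAR1B*, a regulatory subunit of protein kinase A and the next gene on that side, rose from 2377.3 to 4804.0. Around *CTTNBP2*, *ST7* fell by 0.32 (SE 0.10) and *LSM8* by 0.18 (SE 0.07), the latter a call lost in 4 alternatives, and *CAPZA2* did not pass (0.01 ± 0.07).

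A pair of more distant neighbours came closer to the pattern. *PRTFDC1*, which lies 981623 bases upstream of *MYO3A*, had means of 13.7 and 0.0 in sgControl and 43.9 and 77.2 in the knockout. *MET*, the receptor of hepatocyte growth factor, 1202 kb downstream of the start of *CTTNBP2*, had 71.6 and 18.9 in sgControl and 244.9 and 450.1 in the knockout. It fell by 1.92 in sgControl (SE 0.23, adjusted p = 4.39e-16) and rose by 0.88 ± 0.13 in the knockout (adjusted p = 1.33e-10). Genes between them and the members, such as *ST7*, *CAPZA2*, *THNSL1* and *GPR158*, had responses in sgControl of -0.32 to 0.35.

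**Figure D5:**
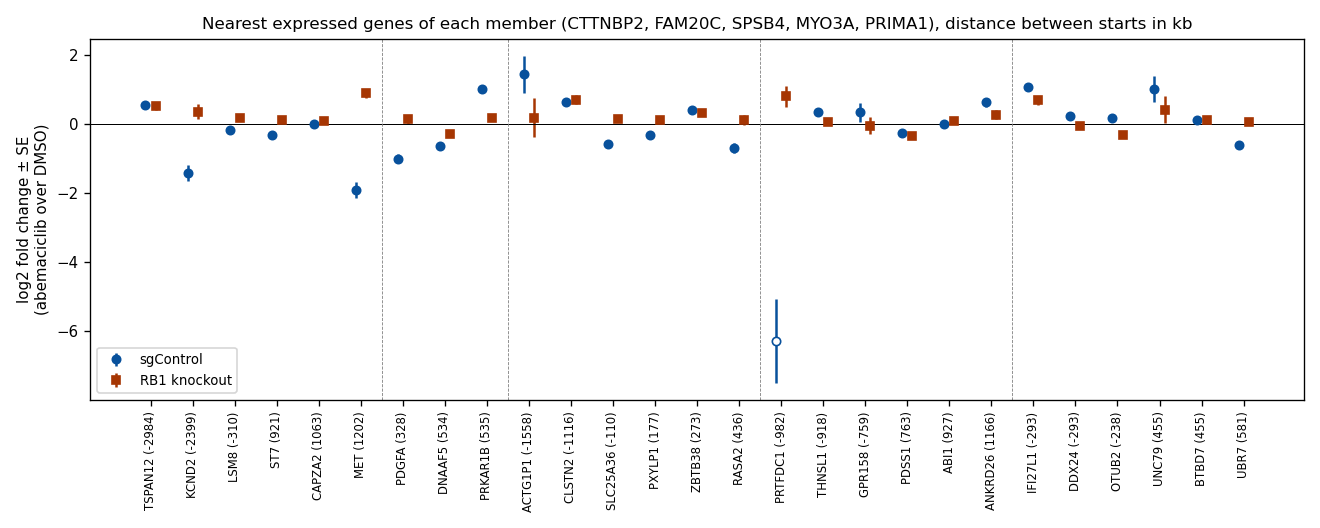
Log2 fold change of abemaciclib over DMSO, with its standard error, in sgControl (blue circles) and *RB1*-knockout cells (brown squares) for the 27 nearest expressed genes, in 5 blocks for *CTTNBP2*, *FAM20C*, *SPSB4*, *MYO3A* and *PRIMA1*; numbers in brackets are the distance in kb between the starts, negative upstream of the member. The open circle is *PRTFDC1*, whose fitted value rests on 0 reads in drug-treated controls and is no bound, and the other sgControl values lie between -1.92 (*MET*) and 1.43 (*ACTG1P1*).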

How the data were processed

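Titles of the samples gave the group and the replicate, and the count columns were matched through the column names in the sample descriptions. The deposited values were raw counts of reads per gene; per the labels and the study's methods the authors aligned with STAR 2.7.5b to hg38 and counted with featureCounts 2.0.1. A strand setting is not given in the sources used here. Of 60656 rows, 44 without a gene name, holding 0.0% of reads, were left out, and 28342 of the rest were zero throughout.

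DESeq2 1.42.0 in R 4.3.3 was fitted once to all 12 libraries with a term for group, median-of-ratios size factors and two-sided Wald tests without shrinkage. Adjusted p-values are Benjamini–Hochberg values over all genes left by independent filtering, with a threshold of 0.05. The scripts were tested on simulated data. Contrasts that contain drug-treated libraries chose the members and are given for them without a p-value. The members and lists were chosen with earlier results of these data known. Positions are from GENCODE v44.

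The genes named were the members and *RB1*, up to 2 partners per list and direction with the largest interaction (mean of at least 100; 1 of them is not reported here), all neighbours with a mean of at least 10, the 3 genes most like each member, the 10 most abundant genes of the count pattern, and *RRM2*, *MKI67*, *CCNE2*, *CDK1* and the cell-cycle genes with the lowest share left. Other genes named were chosen after their values were seen. Replicates of a group differed by more than sampling noise, with a chi-square per gene of at least 3.49. Correlations of same-numbered libraries' deviations were over 0.1 for every number only between genotypes in abemaciclib (0.11 to 0.26, with 6 of 6 libraries best with their own number); between treatments of sgControl they were 0.25, 0.22 and -0.08. Alternatives were edgeR 4.0.16, total-count size factors, only the groups compared, a filter of 10 counts in 3 libraries, the replicate number as a block, and each library left out. The floor of 3 reads covers counting error only, whereas SDs and standard errors include the spread between replicates.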

Additional observations from a re-analysis of the deposited data

Results flagged for a closer look

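Each of the following 33 partners and neighbours was singled out because its response to abemaciclib differed between sgControl and the knockout, by the interaction term of the DESeq2 fit. Values are the knockout response minus the sgControl response on the log2 scale, and 41.2% of all tested genes passed the same test.

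Around *CTTNBP2* the interaction was 0.87 ± 0.13 for *STK26*, 0.71 ± 0.15 for *MOB4* and -0.34 ± 0.08 for *STK25*. Its neighbours had 0.42 for *ST7*, 2.80 ± 0.26 for *MET*, 0.36 for *LSM8* and 1.77 ± 0.33 for *KCND2*.

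In the *FAM20C* list it was 1.22 ± 0.10 for *ERO1A*, 0.66 for *FJX1*, -3.45 ± 0.15 for *SERPINA1* and -0.97 ± 0.05 for *QSOX1*. The neighbours *PDGFA*, *PRKAR1B* and *DNAAF5* had 1.14, -0.84 and 0.35.

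For *SPSB4* the values were 0.51 for *PAWR*, 0.34 for *ARIH2*, -0.53 for *SPSB1* and -0.50 for *ELOB*. *SLC25A36*, *PXYLP1* and *RASA2*, which lie beside the gene, had 0.74, 0.42 (adjusted p = 0.0124) and 0.82.

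The *MYO3A* list had 4.64 ± 0.21 for *CDH23*, 1.18 for *EPS8*, -0.99 for *ESPN* and -0.79 for *FSCN2*. Its neighbour *THNSL1* had -0.29, and the fitted 7.09 ± 1.26 of *PRTFDC1* rests on drug-treated controls without reads and is no bound.

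With *PRIMA1* went 2.34 ± 0.11 for *CHRNA5*, 1.42 for *CHRNA7* and -0.70 ± 0.15 for *ACHE*. The neighbours *UBR7*, *OTUB2* and *DDX24* had 0.67, -0.48 and -0.30.

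The interaction of *PXYLP1* was lost without replicate 1 of sgControl abemaciclib or replicate 2 of knockout abemaciclib, and that of *THNSL1* with total-count size factors.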

How the results depend on the processing

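Of 2737 values recomputed under an alternative, 2644 kept their direction and their side of the threshold or stayed within the spread, 74 passed no longer, 19 moved and 0 reversed. The higher level of the members in knockout DMSO cells passed in 84 of 85 fits; the exception was *MYO3A* with the replicate number as a block (0.53, adjusted p = 0.251). Over the alternatives its log2 fold change lay between 0.49 and 0.59 and that of *PRIMA1* between 0.23 and 0.31, with adjusted p up to 0.0456. In DMSO, deviations of same-numbered libraries correlated at -0.25, -0.01 and 0.08 between genotypes, and 1 of 6 libraries correlated best with its own number, so the numbers do not pair these samples. The block moved no count of partners or neighbours by over 1.5 times.

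With total-count size factors the median of all genes shifted to -0.13 in the sgControl response and to 0.16 in the interaction, and the share of calls that were higher went from 50.2% to 40.1% and from 51% to 63.8%. Partners called higher in knockout DMSO were then 11 and not 17. The cause was not tested.

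With 1 neighbour on each side in place of 3, fewer genes were tested: 1 was higher and 6 lower in sgControl, 0 higher in the knockout, 5 positive and 1 negative in the interaction, 2 higher and 3 lower between genotypes in DMSO, and 5 higher and 1 lower in abemaciclib. Leaving out each library gave 4 to 9 neighbours higher in the knockout response. The *MYO3A* response in sgControl ran from -9.39 to -6.67 and its genotype difference in abemaciclib from 7.90 to 10.62, with -9.39 and 10.62 in the fit without replicate 1 of sgControl abemaciclib. The *SPSB4* level left in the knockout ran from 152 to 182%. The count pattern held for 11 genes at a limit of 3 reads, 135 at 30, 117 with a minimum of 20 elsewhere and 16 with 100. With 0 to 2 reads per drug-treated control library, the folds of *CTTNBP2*, *FAM20C* and *SPSB4* are known only as lower limits set by depth.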
